A study of Mus musculus with 4 samples.

Results

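The platelet-derived growth factor (PDGF) genes are described here in embryonic mouse hearts in which the kinase genes Lats1 and Lats2 were deleted from Wt1-expressing cells. The members are the rows named for the 2 receptors, Pdgfra and Pdgfrb, and the 4 ligands, Pdgfa, Pdgfb, Pdgfc and Pdgfd, which are 6 of the 30268 genes in the deposited table. Hearts were profiled by Drop-seq, which tags the 3′ ends of transcripts in single cells with barcodes and counts distinct molecules (UMIs). The tested embryos, called Lats1/2 CKO, were Wt1 CreERT2/+ and Lats1/2 F/F with the Rosa26mTmG/+ reporter, and were taken at E13.5 and at E14.5. The controls carried Wt1 CreERT2/+ and Rosa26mTmG/+ with no floxed Lats alleles, at the same stages. Every library therefore holds a Wt1 allele changed by the inserted CreERT2, a Cre that acts after tamoxifen, and a reporter that turns from Tdtomato to Egfp in recombined cells. Cre is driven from Wt1, so recombination is limited to cells that expressed Wt1, of which the epicardium is the main source in the heart, and to their descendants. There was 1 library per genotype and stage, so a difference between 2 libraries of a stage carries counting error but no replicate error, and genotype and library cannot be told apart within a stage.

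PDGFs are secreted dimers that bind a pair of receptor tyrosine kinases. The alpha receptor responds to PDGF-A, PDGF-B and PDGF-C, and the beta receptor to PDGF-B and PDGF-D. PDGF-C and PDGF-D are secreted in a latent form that proteases open. In the developing heart the alpha receptor is a marker of cardiac fibroblasts and valve mesenchyme, the beta receptor of pericytes and smooth muscle, and PDGF-B from endothelium is known for drawing pericytes to new vessels. Lats1 and Lats2 restrain Yap and Taz, which act in the nucleus together with Tead transcription factors.

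Pdgfra (ENSMUSG00000029231) lies on the plus strand at chr5:75152292-75198215 of GRCm38 and encloses the microRNA gene Mir7025 at chr5:75176831-75176904. Pdgfa (ENSMUSG00000025856) lies at chr5:138976014-138997370 on the minus strand, Pdgfb (ENSMUSG00000000489) at chr15:79995874-80014977 on the minus strand, Pdgfc (ENSMUSG00000028019) at chr3:81036416-81214040 on the plus strand and Pdgfd (ENSMUSG00000032006) at chr9:6168584-6378850 on the plus strand. The RefSeq promoter table of GRCm38.p6 held a window for 4 of the 6 members. Its windows run up to RefSeq starts, from which the positions below are counted. These starts differ from the gene bounds above for Pdgfra, Pdgfa and Pdgfd. The 250 bases before the start of Pdgfra are shown because its level in fibroblast-like cells is described most closely below, and those of Pdgfc because they hold, in capitals, the Tead core GGAATG, 137 bases before the start.
Pdgfra, chr5:75152001-75152250, plus strand: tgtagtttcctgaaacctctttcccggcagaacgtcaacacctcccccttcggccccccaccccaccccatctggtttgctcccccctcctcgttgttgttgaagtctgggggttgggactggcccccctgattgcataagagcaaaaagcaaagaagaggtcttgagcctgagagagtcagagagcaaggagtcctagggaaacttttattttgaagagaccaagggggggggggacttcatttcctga
Pdgfc, chr3:81036166-81036415, plus strand: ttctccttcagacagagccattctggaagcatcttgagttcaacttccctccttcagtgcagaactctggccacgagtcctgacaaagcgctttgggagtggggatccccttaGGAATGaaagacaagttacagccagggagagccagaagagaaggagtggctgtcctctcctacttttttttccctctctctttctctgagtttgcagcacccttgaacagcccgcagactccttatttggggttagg
The Pdgfra window held none of the 5 motifs searched on both strands, which were the Tead core (GGAATG or CATTCC), the TATA box (TATAAA or TTTATA), the GC box (GGGCGG or CCGCCC), the E box (CACGTG) and the AP-1 site (TGACTCA or TGAGTCA). Over 32851 promoter windows of this length, 12.6% held the Tead core, 12.4% the TATA box, 32.7% the GC box, 6.02% the E box and 4.46% the AP-1 site. A Pdgfd window held TATAAA at position -160 from the start, and both Pdgfa windows held GC boxes.

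The 4 libraries kept 5915 and 5595 Lats1/2 CKO cells at E13.5 and E14.5, and 4471 and 5504 control cells at the same stages, with median depths of 2015, 1035, 1589 and 955 UMIs per cell in that order. Depth was therefore higher in the Lats1/2 CKO library at each stage. Between 6 and 8 cell barcodes of each library also occurred in another library. Cells were clustered without the PDGF genes, and clusters of all cells were named "-like" from fixed marker lists. Mesenchyme was then clustered again within each stage. A subcluster took the name that most of its cells already had, unless its markers made it mixed or the Kcnj8 cluster described below. Only the 9 classes with at least 50 cells in every library are described. Fibroblast-like cells, 357 and 323 in Lats1/2 CKO and 286 and 343 in control libraries at the 2 stages, had all 10 fibroblast markers detected in every library. So did epicardial-like, valve mesenchyme-like, mural-like and cardiomyocyte-like cells, so detection alone does not set the class apart. The sum of the 10 markers does not set it apart from epicardial-like cells either. These had 17981 and 18697 CPM in Lats1/2 CKO and 19687 and 29753 CPM in control libraries. Fibroblast-like cells had 19255 and 20062 CPM in Lats1/2 CKO and 15802 and 19329 CPM in controls. Epicardial-like cells, 217 and 212 in Lats1/2 CKO and 113 and 88 in control libraries, had all 10 epicardial markers detected. A cluster led by Stmn2, Cyp26b1, Aqp1 and Wnt4 was left unnamed. Levels are UMIs of the gene scaled to a total of 1000000 UMIs for the class in that library (CPM), with 95% exact Poisson intervals that cover counting error only.

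The deleted genes were low in the libraries of both genotypes. In epicardial-like cells, Lats2 stood at 32.0 and 45.0 CPM in Lats1/2 CKO libraries at E13.5 and E14.5, against 64.9 and 85.6 CPM in controls, and Lats1 at 16.0 and 21.5 CPM, against 24.3 and 40.0 CPM. Both were lower in Lats1/2 CKO cells at each stage, on 7 to 24 UMIs a library. The deleted exons are not given in the sources used here, and a 3′ tag outside them does not check the deletion. The reporter transcript Egfp stood at 630 and 589 CPM in Lats1/2 CKO epicardial-like cells, against 89.3 and 34.2 CPM in control ones, and at 186 and 161 CPM in Lats1/2 CKO fibroblast-like cells, against 48.3 and 21.5 CPM in control ones. Egfp was thus several times higher in Lats1/2 CKO libraries in both classes although controls carry the same Cre and reporter. The part of this difference in the PDGF differences below was not tested.

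Pdgfra, the alpha receptor gene, had its highest level in a mesenchymal class in every library, though in a different one in the 2 genotypes. In fibroblast-like cells it stood at 217 CPM (95% interval 190 to 247) in the Lats1/2 CKO library and 381 CPM (337 to 429) in the control library at E13.5. At E14.5 it stood at 146 CPM (112 to 188) in the Lats1/2 CKO library and 330 CPM (274 to 394) in the control library. Both Lats1/2 CKO fibroblast levels lay below both control levels, and the counting intervals did not overlap. In valve mesenchyme-like cells, which build the valve leaflets, Pdgfra stood at 248 and 251 CPM in Lats1/2 CKO libraries and at 215 and 183 CPM in controls. Valve mesenchyme-like cells therefore held the highest Pdgfra level of the 9 classes in both Lats1/2 CKO libraries, and fibroblast-like cells in both control libraries. The Stmn2-led cluster had 146 and 133 CPM in Lats1/2 CKO and 160 and 145 CPM in control libraries, and came next after those classes in all but the Lats1/2 CKO library at E14.5. Mural-like cells, the smooth muscle and pericyte lineage, had 110 and 162 CPM in Lats1/2 CKO and 85.6 and 94.5 CPM in control libraries. In the Lats1/2 CKO library at E14.5 fibroblast-like cells thus came after both valve mesenchyme-like and mural-like cells, although the mural-like level rests on 25 UMIs. Epicardial-like cells, from which much of the fibroblast lineage descends, had only 32.0 and 27.4 CPM in Lats1/2 CKO and 43.3 and 40.0 CPM in control libraries, on 7 to 24 UMIs.

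Classes not expected to express the alpha receptor were taken as its background. The source of their UMIs, such as free RNA, was not tested. Cardiomyocyte-like cells held 3.87 and 2.37 CPM in Lats1/2 CKO and 2.94 and 5.98 CPM in control libraries, and macrophage-like cells 0 to 24.9 CPM. After every cell was thinned to 500 UMIs, a Pdgfra UMI was found in 10.1% and 7.12% of fibroblast-like cells in Lats1/2 CKO libraries and in 13.3% and 14.9% of those in controls, against 0.126% to 0.432% of cardiomyocyte-like cells. Without thinning the shares were 38.4% and 15.5% of fibroblast-like cells in Lats1/2 CKO libraries and 43.7% and 26.5% in controls, against 0.435% to 1.24% of cardiomyocyte-like cells. Thinning set aside the depth of the 2 classes, whose unthinned medians were 858 to 2396 UMIs in fibroblast-like and 1158 to 2824 UMIs in cardiomyocyte-like cells. Epicardial-like cells had 0.943% to 3.41%, against 0% to 1.55% in macrophage-like cells, so their shares were not all clear of background.

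**Figure D1:**
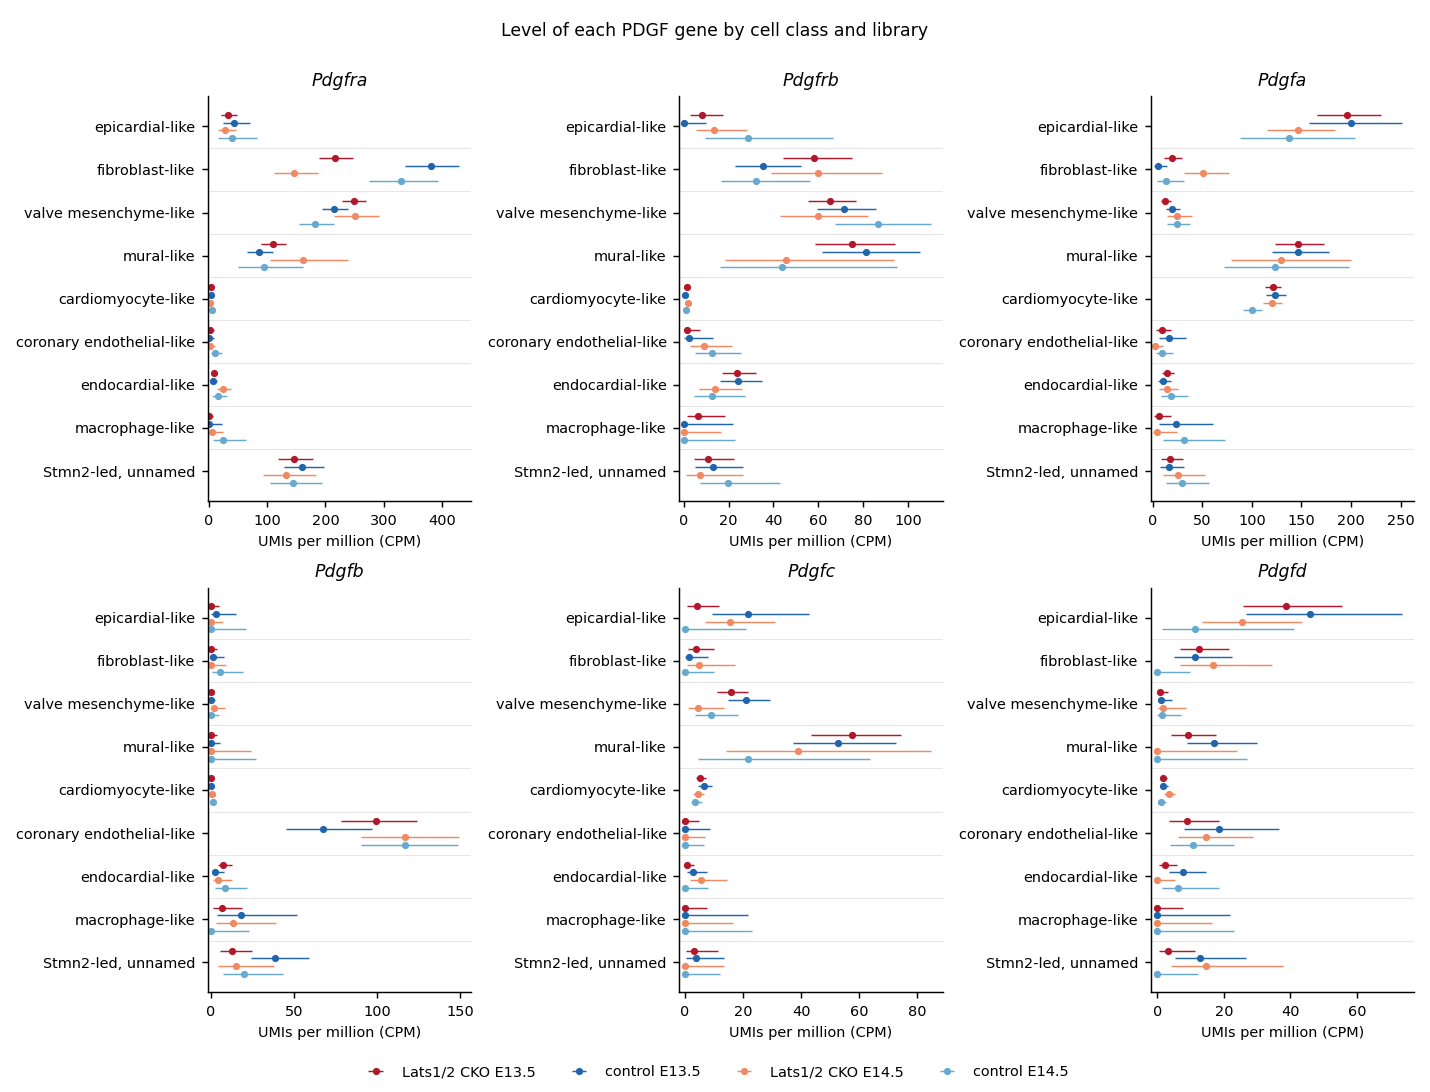
Level of each PDGF gene (x axes, CPM) in 9 cell classes, with 1 point per library and 95% Poisson intervals as bars. In fibroblast-like cells both Lats1/2 CKO points for Pdgfra (217 and 146 CPM) lie left of both control points (381 and 330 CPM), while Pdgfa is highest in epicardial-like and Pdgfb in coronary endothelial-like cells in every library.

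Pdgfrb, the beta receptor gene, was spread over the mesenchymal classes with no class ahead in every library. Mural-like cells had 74.9 and 45.4 CPM in Lats1/2 CKO and 81.3 and 43.6 CPM in control libraries, and led at E13.5 only. Valve mesenchyme-like cells had 65.3 and 60.0 CPM in Lats1/2 CKO and 71.6 and 86.8 CPM in control libraries, and led at E14.5. In fibroblast-like cells Pdgfrb stood at 58.1 and 60.0 CPM in Lats1/2 CKO libraries and at 35.5 and 32.2 CPM in controls. Fibroblast-like cells thus ranked close to valve mesenchyme-like cells in the Lats1/2 CKO libraries and below them in the controls. Endocardial-like cells, the inner lining of the heart, had 12.6 to 24.0 CPM, and epicardial-like cells 0 to 28.5 CPM. A small mesenchymal cluster led by Fabp7, Kcnj8 and Abcc9 had the highest Pdgfrb of any group, with 270 and 170 CPM in Lats1/2 CKO and 225 and 183 CPM in control libraries. Kcnj8 and Abcc9 are known from pericytes, while Fabp7 was on the neural and glial marker list. The cluster was also set apart by Tcf21, at least 1 log2 above the other cells of its stage. It held only 29 to 105 cells a library and is given here as values alone. Cardiomyocyte-like cells, at 0.630 to 1.78 CPM, were near 0.

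The receptors were seldom detected in the same cell. Among fibroblast-like cells thinned to 500 UMIs, 36 and 22 Lats1/2 CKO cells and 36 and 50 control cells had a Pdgfra UMI alone. A Pdgfrb UMI alone was found in 8 and 8 Lats1/2 CKO cells and 6 and 7 control cells, and both together in 0 and 1 Lats1/2 CKO cells and 2 and 1 control cells. Counts this low cannot separate cells with both receptors from cells with either.

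Pdgfa, the main ligand of the alpha receptor, was highest in the epicardial-like cells themselves, with 196 and 147 CPM in Lats1/2 CKO libraries and 200 and 137 CPM in controls. Mural-like cells followed with 147 and 130 CPM in Lats1/2 CKO and 147 and 124 CPM in control libraries, and cardiomyocyte-like cells with 121 and 120 CPM in Lats1/2 CKO and 124 and 99.9 CPM in controls. That order held in all 4 libraries, although the intervals of epicardial-like and mural-like cells overlapped in each. Cardiomyocyte-like cells supplied 64.4% and 75.4% of all Pdgfa UMIs in Lats1/2 CKO libraries and 68.3% and 70.5% in controls. Pdgfa was therefore high in epicardial-like and cardiomyocyte-like cells, where Pdgfra was low, and low in fibroblast-like and valve mesenchyme-like cells, while mural-like cells had both. Valve mesenchyme-like cells had 12.7 to 24.6 CPM, against 10.3 to 18.9 CPM in endocardial-like and 4.47 to 31.1 CPM in macrophage-like cells. Fibroblast-like cells had 19.4 and 50.4 CPM in Lats1/2 CKO and 5.68 and 13.4 CPM in control libraries.

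Pdgfb, the ligand of both receptors, came mainly from coronary endothelial-like cells. These had 99.4 and 117 CPM in Lats1/2 CKO libraries and 67.4 and 117 CPM in controls. They supplied 75.5% and 82.1% of its UMIs in Lats1/2 CKO libraries and 49.2% and 71.7% in controls. The Stmn2-led cluster was next in all 4 libraries, with 12.4 and 14.7 CPM in Lats1/2 CKO and 38.7 and 19.8 CPM in controls. Mural-like cells had 0 Pdgfb UMIs in every library, which allows up to 3.08 to 21.8 CPM. Valve mesenchyme-like cells had at most 1 UMI, and epicardial-like and fibroblast-like cells at most 2.

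Pdgfc, a latent ligand of the alpha receptor, was highest in mural-like cells in all 4 libraries, with 57.4 and 38.9 CPM in Lats1/2 CKO and 52.8 and 21.8 CPM in controls. At E14.5 these levels rest on 6 and 3 UMIs. With the marker gate mural-like cells led in 0 of 4 libraries (17.5 CPM in Lats1/2 CKO at E13.5), and among cells with at least 1000 UMIs in 3. Valve mesenchyme-like cells had 15.8 and 4.62 CPM in Lats1/2 CKO and 21.1 and 8.94 CPM in control libraries, so levels were lower at E14.5 than at E13.5 in both genotypes. Coronary endothelial-like and macrophage-like cells had 0 Pdgfc UMIs.

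Pdgfd, a latent ligand of the beta receptor, was highest in epicardial-like cells, with 38.6 and 25.4 CPM in Lats1/2 CKO and 46.0 and 11.4 CPM in controls, on 29, 13, 17 and 2 UMIs in that order. The control E14.5 level could not be told from that of coronary endothelial-like cells, at 10.6 CPM. Fibroblast-like cells had 12.6 and 16.8 CPM in Lats1/2 CKO and 11.4 and 0 CPM in control libraries. Epicardial-like cells thus held the highest levels of a ligand for each receptor, Pdgfa and Pdgfd, while carrying little of either receptor.

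**Figure D2:**
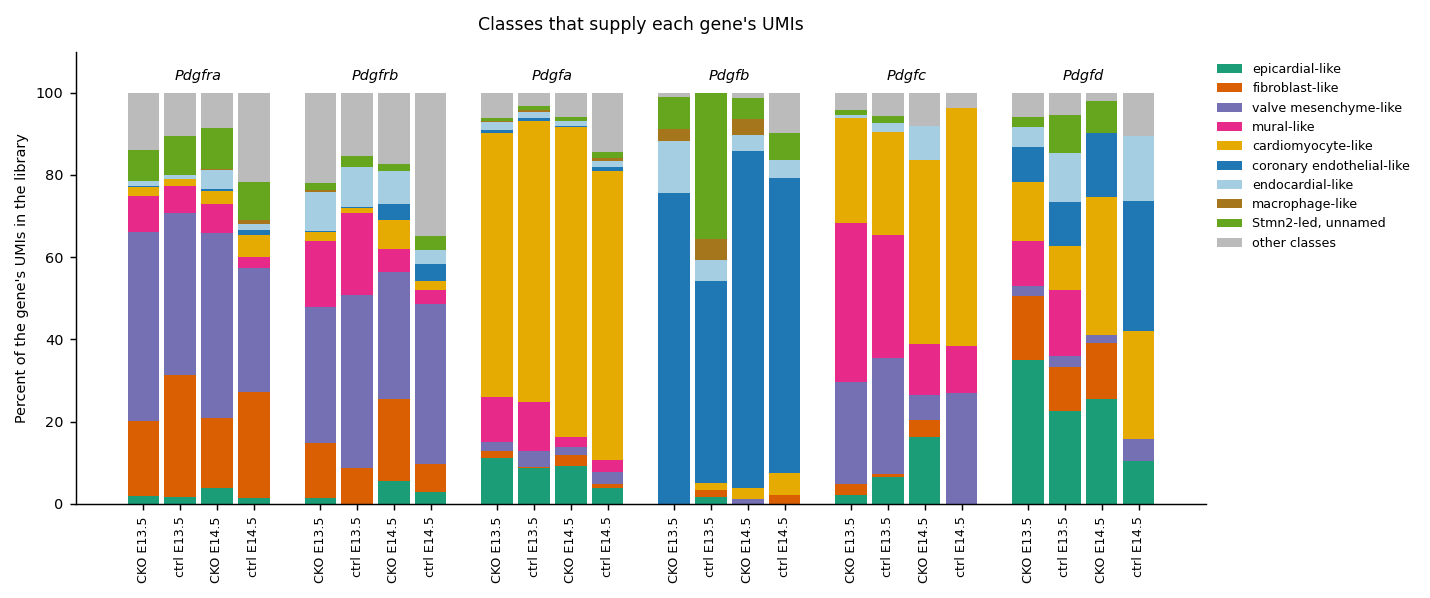
Percent of each gene's UMIs (y axis) that each cell class supplied in each library (x axis, CKO for Lats1/2 CKO, ctrl for control), with classes stacked in colours. Cardiomyocyte-like cells supplied 64.4% to 75.4% of Pdgfa, coronary endothelial-like cells 49.2% to 82.1% of Pdgfb, and valve mesenchyme-like with fibroblast-like cells most of Pdgfra.

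In fibroblast-like cells Pdgfra was lower in Lats1/2 CKO hearts at both stages, by an amount that depended on how the class was drawn. Pdgfa was higher on few UMIs, and Pdgfrb was higher with a sign at E14.5 that depended on how the class was drawn. The Pdgfra log2 ratio of Lats1/2 CKO over control was -0.81 at E13.5 (95% counting interval -1.07 to -0.55), from 224 and 268 UMIs. At E14.5 it was -1.17 (-1.64 to -0.72), from 61 and 123 UMIs. Only 679 of 9602 genes with at least 20 UMIs had a lower ratio at E13.5 and 317 of 6570 at E14.5, against medians over all genes of -0.03 and -0.01. The Pdgfrb ratio was 0.69 (0.02 to 1.45) at E13.5, and it stood at 0.87 (-0.15 to 2.02) for E14.5, and the E14.5 interval reaches below 0. The E14.5 sign of Pdgfrb turned at clustering resolution 0.5 (-0.11), with a gate on marker genes (-0.21) and with clusters of all cells together (-0.0066). The Pdgfa ratio was 1.64 (0.19 to 3.78) at E13.5, from 20 and 4 UMIs, and 1.81 (0.46 to 3.67) at E14.5, from 21 and 5 UMIs. Of these Pdgfa levels, only that of the Lats1/2 CKO library at E14.5, 50.4 CPM (31.2 to 77.0), lay above the intervals of endocardial-like and macrophage-like cells of its library. The Pdgfd ratio was 0.12 (-1.23 to 1.62) at E13.5. A difference of at least 1.5-fold was met by 3 of the 4 members with at least 20 UMIs at E13.5, where 27.9% of all such genes met it. At E14.5 it was met by 3 of 3 members, where 29.4% of all genes met it.

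Across both stages together, edgeR's quasi-likelihood test with stage as a term gave Pdgfra in fibroblast-like cells a log2 fold change of -0.95 (SE 0.204), with an unadjusted p of 0.0038 and a Benjamini-Hochberg adjusted p of 0.61. The same test gave Pdgfa 1.84 (SE 0.519, adjusted p = 0.73) and Pdgfrb 0.81 (SE 0.322, adjusted p = 0.79). For Pdgfa the value was 1.09 without the Lats1/2 CKO E14.5 library, 1.21 without the control E13.5 library and 0.89 with the marker gate. For Pdgfrb it was 0.33 at resolution 0.5, 0.27 with the gate and 0.37 with clusters of all cells together. No member passed the threshold of 0.05 in this class, where 1 of 8348 genes did, or 0.0120%, and 525 had an unadjusted p under 0.05. The fit has 1 residual degree of freedom. Without the filter on low counts the Pdgfra value was -0.93 with an adjusted p of 0.0205, and under the other 15 alternatives it did not pass. When cells were gated one by one on marker genes instead of clustered, the Pdgfra ratio shrank to -0.23 at E13.5 and -0.50 at E14.5, and clusters made without reclustering of the mesenchyme gave -0.65 at E14.5. With the gate, edgeR gave Pdgfra -0.33 (SE 0.233), with an unadjusted p of 0.19 and an adjusted p of 0.99.

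The fibroblast-like class had a single subcluster at E13.5 and 2 at E14.5, whose cell numbers differed between genotypes. The first, led by Lsp1, Hic1 and Tcf21, held 146 Lats1/2 CKO and 305 control cells. Its Pdgfra level was 215 CPM in Lats1/2 CKO and 314 CPM in control cells, with a log2 ratio of -0.53 (-1.18 to 0.05). The second, led by Adm, Lrat and Myh1 and with none of the fibroblast markers among its 10 leading genes, held 177 Lats1/2 CKO and 38 control cells, so most Lats1/2 CKO cells and few control cells of the class were in it. It took its class name from the clusters of all cells. In it 6 of the 10 fibroblast markers were at least 0.5 log2 above the other cells of the stage, against 10 in the first. Its Pdgfra level was 110 CPM in Lats1/2 CKO and 405 CPM in control cells, with a log2 ratio of -1.88 (-2.68 to -1.08). Pdgfra stood lower in Lats1/2 CKO cells of both subclusters. With the Lats1/2 CKO subclusters weighted as in the control library, where the first held 82.1% of the UMIs, the level at E14.5 was 196 CPM against 330 CPM, a log2 ratio of -0.75. At E13.5, where the class was not split, Adm stood at 74.6 CPM in Lats1/2 CKO and 14.2 CPM in control cells. Lrat stood there at 101 CPM in Lats1/2 CKO and 0 CPM in control cells. No such weighting was possible at E13.5, and the part of make-up in its Pdgfra ratio was not tested. Pdgfrb at E14.5 was higher in the first subcluster, at 125 CPM in Lats1/2 CKO and 35.9 CPM in control cells (1.77, 0.64 to 3.03), while the second had 25.7 CPM in Lats1/2 CKO and 15.01 CPM in control cells. Pdgfa stood higher in the second, with 19 UMIs in Lats1/2 CKO cells (69.6 CPM) and 0 in control cells, a count that allows up to 45.0 CPM. In the first it stood at 13.9 CPM in Lats1/2 CKO and 16.3 CPM in control cells.

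Fibroblast-like cells of the Lats1/2 CKO libraries had a similar Pdgfra level with and without an Egfp UMI. At E13.5 it was 219 CPM in the 63 cells with one and 217 CPM in the 294 without, and at E14.5 it was 151 CPM in 39 cells with one and 145 CPM in 284 without. Control cells with an Egfp UMI were few, with 640 CPM in 19 cells at E13.5 and 421 CPM in 6 cells at E14.5, and those without had 351 and 326 CPM. Among cells without an Egfp UMI, the Lats1/2 CKO level was thus lower at both stages, with intervals of 186 to 250 CPM against 307 to 401 CPM at E13.5 and of 108 to 191 CPM against 269 to 391 CPM at E14.5. Absence of an Egfp UMI at this depth does not show that a cell was unrecombined. Within epicardial-like cells of the Lats1/2 CKO libraries, Pdgfra was 35.4 and 32.9 CPM with an Egfp UMI and 27.5 and 17.0 CPM without, on 3 to 15 UMIs.

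**Figure D3:**
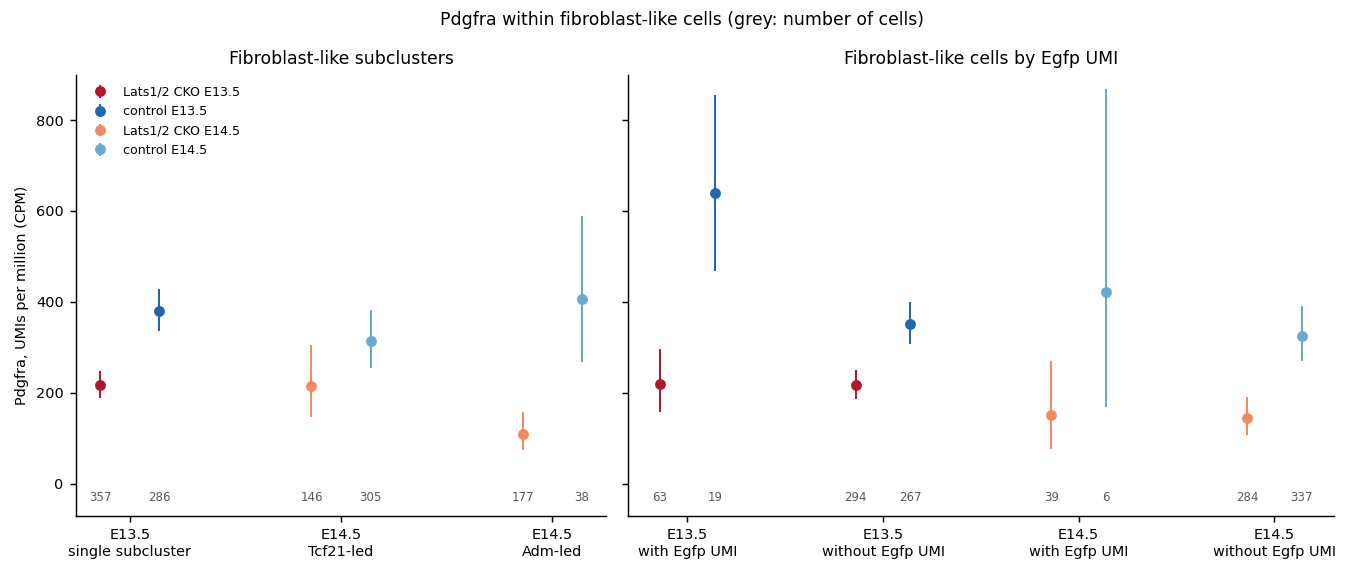
Pdgfra level (y axes, CPM) in fibroblast-like subclusters (left) and in fibroblast-like cells with or without an Egfp UMI (right), with 95% Poisson intervals as bars and cell numbers in grey. Every Lats1/2 CKO point lies below the control point beside it, from 110 against 405 CPM in the Adm-led subcluster to 215 against 314 CPM in the Tcf21-led one.

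Markers of neighbouring classes differed in these cells as well. The 10 epicardial markers summed to 165 and 336 CPM in Lats1/2 CKO and 199 and 93.9 CPM in control fibroblast-like cells, with 9, 9, 10 and 6 of them detected in that order and Krt8 at 0 in all but the control E13.5 library. The 10 mural markers summed to 996 and 1140 CPM in Lats1/2 CKO, with 9 detected at each stage, and to 830 and 789 CPM in controls, with 8 detected. Higd1b was at 0 in every library and Myh11 at 0 in the controls. The 10 fibroblast markers summed to 19255 and 20062 CPM in Lats1/2 CKO and 15802 and 19329 CPM in control libraries, a sum carried by the collagen genes. Col1a1 and Col1a2 were higher in Lats1/2 CKO cells at both stages, while Tcf21, Dcn, Lum, Postn and Fbln1, 5 of the 10, were lower at both. At E14.5 8 of the 10 were lower, among them the matrix genes Lum, at 165 CPM in Lats1/2 CKO and 416 CPM in control cells, and Postn, at 811 CPM in Lats1/2 CKO and 1733 CPM in control cells. Tcf21, a transcription factor of the fibroblast lineage, stood at 842 and 470 CPM in Lats1/2 CKO and at 1021 and 577 CPM in controls, and Wt1 at 51.3 and 101 CPM in Lats1/2 CKO and 56.8 and 34.9 CPM in controls. The part of these markers in the Pdgfra difference was not tested.

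Epicardial-like cells had too few receptor UMIs to place a genotype difference. The Pdgfra log2 ratio was -0.45 (-1.41 to 0.57) at E13.5, and it stood at -0.59 (-1.95 to 1.005) for E14.5, and both intervals span 0. With the marker gate the E13.5 ratio was -1.28 (-2.07 to -0.51), from 38.5 CPM in the Lats1/2 CKO and 93.9 CPM in the control library, and the E14.5 ratio was -0.17. Pdgfa, the ligand these cells hold most of, had ratios of -0.04 (-0.45 to 0.39) and 0.08 (-0.58 to 0.83), with intervals of counting error that span 0 at both stages. The Pdgfd ratio was -0.27 (-1.16 to 0.70) at E13.5. None of 3 members met 1.5-fold at E13.5, where 32.5% of genes did, and 1 of 2 at E14.5, where 34.3% did. In edgeR Pdgfra had a log2 fold change of -0.48 (SE 0.474, adjusted p = 0.86; -0.94 with the gate, adjusted p = 0.82), where 7 of 7667 genes or 0.0913% passed and 616 had an unadjusted p below 0.05.

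Epicardial-like and fibroblast-like cells together had Pdgfra at 139 and 80.8 CPM in Lats1/2 CKO libraries and at 265 and 237 CPM in controls. The log2 ratios were -0.93 (-1.18 to -0.68) and -1.55 (-1.98 to -1.13). In edgeR the fold change was -1.19 (SE 0.223), with an unadjusted p of 0.0014 and an adjusted p of 0.38. Of 10624 genes 1 passed, or 0.00941%, and 745 had an unadjusted p under 0.05. Epicardial-like cells, low in Pdgfra, were 217 of 574 Lats1/2 CKO and 113 of 399 control cells of the pair at E13.5, and 212 of 535 and 88 of 431 at E14.5, so the pooled level weights the 2 classes differently in each library. Pdgfd stood at 20 UMIs in the Lats1/2 CKO and 2 in the control library at E14.5, a ratio of 2.28 (0.52 to 5.70), and at 0.00 (-0.73 to 0.79) at E13.5. The 1.5-fold limit was met by 2 of 4 members at E13.5, against 26.5% of genes, and by 3 of 4 at E14.5, against 29.9%.

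**Figure D4:**
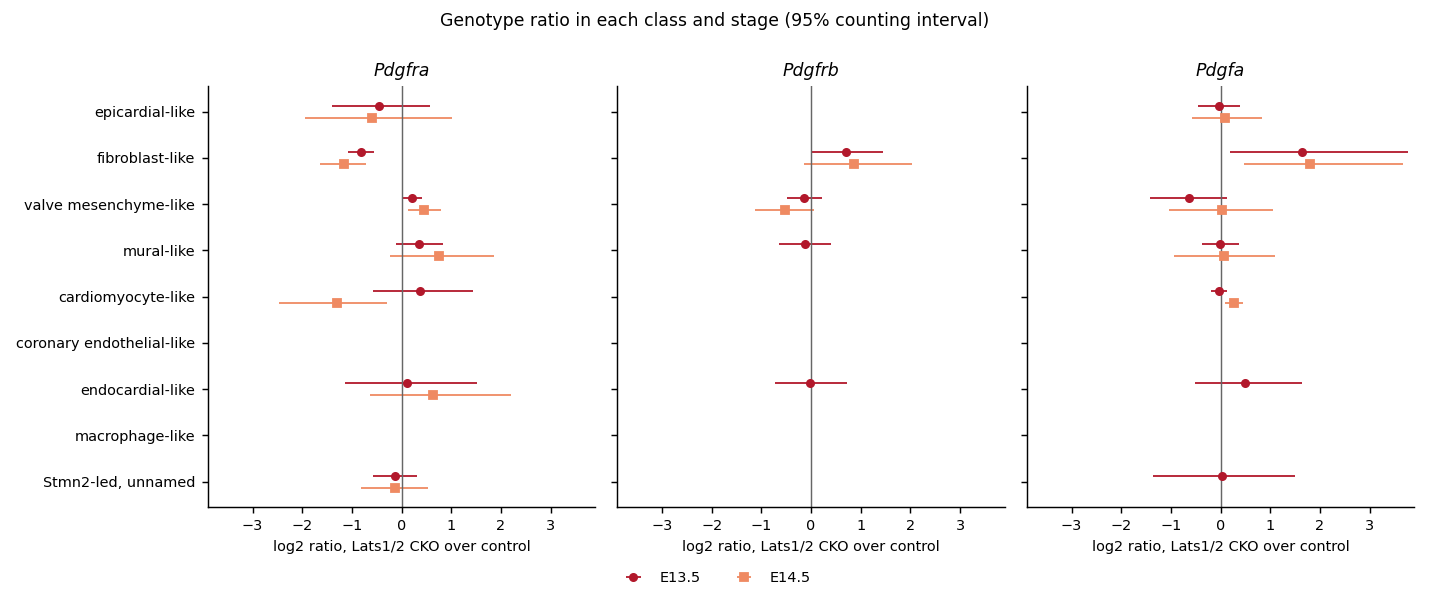
Log2 ratio of Lats1/2 CKO over control (x axes) for Pdgfra, Pdgfrb and Pdgfa in each class, for E13.5 (circles) and E14.5 (squares), with 95% counting intervals as bars and with pairs under 20 UMIs left out. For Pdgfra the fibroblast-like intervals lie below 0 at both stages (-0.81 and -1.17) and the valve mesenchyme-like ones above 0 (0.21 and 0.46).

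Valve mesenchyme-like cells had positive ratios for Pdgfra, of 0.21 (0.01 to 0.40) at E13.5, and it stood at 0.46 (0.13 to 0.79) for E14.5. Its edgeR fold change was 0.33 (SE 0.179, adjusted p = 0.99), and 5 of 11081 genes or 0.0451% passed. At E13.5 the class held 6 subclusters, whose Pdgfra ratios ran from -0.27 to 0.74, with 3 lower and 3 higher in Lats1/2 CKO cells. The subcluster with the most Pdgfra, led by Lect1, Angptl1 and Papss2, had 352 CPM in Lats1/2 CKO and 422 CPM in control cells. It held 373 of 1115 Lats1/2 CKO and 154 of 905 control cells, so it weighed more in the Lats1/2 CKO level. With the Lats1/2 CKO subclusters weighted as in the control library, the E13.5 level was 222 CPM against 215 CPM, a log2 ratio of 0.04. The part of the make-up of the class in the E13.5 ratio was not tested. At E14.5 the 4 subclusters had ratios of 0.32 to 0.54, and the ratio at the control make-up was 0.44. One of these was led by haemoglobin genes, and without it the class ratio was 0.45. At E13.5 one subcluster, led by Btn1a1, had a fibroblast marker and no valve marker among its 10 leading genes, and without it the class ratio was 0.24. Pdgfrb in the class had ratios of -0.13 (-0.49 to 0.23) and -0.52 (-1.14 to 0.06). The 1.5-fold limit was met by 1 of 4 members at E13.5, which was Pdgfa at -0.64 (-1.42 to 0.12), against 22.8% of genes, and by 0 of 3 at E14.5, against 21.2%.

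In the other classes the members differed little or rested on few UMIs. Mural-like cells had Pdgfra ratios of 0.35 (-0.11 to 0.84) and 0.75 (-0.24 to 1.87), and Pdgfa ratios of -0.00 and 0.06. The 1.5-fold limit was met in them by 1 of 5 members at E13.5, against 25.4% of genes, and by 1 of 2 at E14.5, against 27.9%, while 52 of 7312 genes or 0.711% passed edgeR. In cardiomyocyte-like cells, the largest source of Pdgfa, its ratio was -0.03 (-0.18 to 0.12) at E13.5, and it stood at 0.27 (0.09 to 0.45) for E14.5. The many UMIs behind these values, 843 in the Lats1/2 CKO and 588 in the control library at E13.5, then 610 and 434 a stage later, make them the most precise of all member ratios. Of 4 members with 20 UMIs in cardiomyocyte-like cells, 0 met the limit at E13.5, against 23.5% of genes, and 2 at E14.5, against 21.0%. Those were Pdgfd, at 1.45 (0.05 to 3.34), and Pdgfra, at -1.31 (-2.46 to -0.30) on 12 and 26 UMIs.

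The Pdgfra ratio of cardiomyocyte-like cells at E14.5 stands beside the fibroblast one, since these cells lie at the background level of the gene. Coronary endothelial-like and macrophage-like cells were lower too, at 1.83 and 4.47 CPM in the Lats1/2 CKO and 10.6 and 24.9 CPM in the control library at E14.5. Over all kept cells Pdgfra stood at 72.2 and 39.7 CPM in Lats1/2 CKO and 81.4 and 55.7 CPM in control libraries. At E13.5 the cardiomyocyte-like ratio was 0.37 (-0.58 to 1.44), the other way from that of fibroblast-like cells. The part of free RNA in the fibroblast ratio was not tested.

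Pdgfb in coronary endothelial-like cells had ratios of 0.54 (-0.07 to 1.23) and 0.00 (-0.52 to 0.52), so 0 of 1 member met 1.5-fold at either stage, against 27.3% and 23.9% of genes. Its edgeR fold change was 0.27 (SE 0.267, adjusted p = 0.999), where 4 of 8088 genes or 0.0495% passed. In the Stmn2-led cluster Pdgfb stood at 8 UMIs in the Lats1/2 CKO and 21 in the control library at E13.5, a ratio of -1.58 (-3.02 to -0.40). There 1 of 3 members met the limit at E13.5, against 25.1% of genes, and 0 of 1 at E14.5, against 26.1%, and 8 of 7453 genes or 0.107% passed edgeR. Pdgfra in that cluster had ratios of -0.13 at both stages. In endocardial-like cells 0 of 3 members met the limit at E13.5, against 23.4% of genes, and 1 of 1, Pdgfra at 0.64 (-0.64 to 2.21), at E14.5, against 20.4%. There 8 of 10008 genes or 0.0799% passed edgeR. In cardiomyocyte-like cells 0 of 14076 genes passed edgeR (0.00%, while 553 had an unadjusted p below 0.05), and in macrophage-like cells 0 of 4280 (0.00%, with 178). In all, 23 fits of a member in 8 classes gave 0 past the edgeR threshold and 3 with an unadjusted p below 0.05, all 3 in fibroblast-like cells. The 4 fits in epicardial-like and fibroblast-like cells together, which hold those same cells, gave 0 and 2. Among all genes tested, an unadjusted p below 0.05 was found for 525 of 8348 in fibroblast-like cells and 745 of 10624 in both together. It was found for 616 of 7667 in epicardial-like, 406 of 7312 in mural-like and 500 of 11081 in valve mesenchyme-like cells. Coronary endothelial-like cells had 339 of 8088, endocardial-like cells 437 of 10008 and the Stmn2-led cluster 412 of 7453.

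No gene passed the test in any class in a list of 54 genes of the PDGF pathway, all of them in the table. The list covers ligand processing and binding, adaptors and enzymes bound by the receptors, downstream kinases, restraining factors and receptor transport. In fibroblast-like cells 0 of 43 tested genes passed edgeR in either direction, 3 had an unadjusted p under 0.05, and their median log2 fold change was -0.10, against 0.00 over all genes. In epicardial-like cells 0 of 42 passed, 2 had an unadjusted p below 0.05, and the median was 0.01. In each of the other 8 fits 0 genes of the list passed, of 23 to 50 tested, while 0 to 2 had an unadjusted p below 0.05, and the list had medians of -0.10 to 0.04. The paragraph above gives how many of all genes had such a p in each fit. Among the largest ratios with the same sign at both stages in fibroblast-like cells, none past the threshold, were those of the ciliary transport gene Ift88 (-0.49 and -0.93), the co-receptor gene Nrp1 (0.46 and 0.995) and the kinase gene Mapk3 (-0.42 and -0.54). Nrp1, which binds PDGF among other factors, stood at 209 and 360 CPM in Lats1/2 CKO and at 152 and 180 CPM in control fibroblast-like cells.

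The same rule named Akt2 (0.68 and 0.88), Mapk3 (-0.61 and -1.14), and Kif3a (-0.40 and -0.81) in epicardial-like cells. In valve mesenchyme-like cells it named Pik3cb (0.67 and 0.67), Shc1 (0.51 and 0.51), Dusp6 (-1.10 and -0.46) and Mapk3 (-0.39 and -0.38). Dusp6, a phosphatase that restrains Erk signalling, was also named in the Stmn2-led cluster (-1.02 and -0.95), with Shc1 (0.56 and 0.61), Rasa1 (-0.47 and -0.63) and Cbl (-0.44 and -0.55). Mural-like cells gave Nrp1 (-0.31 and -0.84), Map2k2 (-0.37 and -0.24), Lrp1 (0.14 and 0.11) and Ift20 (0.07 and 0.15). Cardiomyocyte-like cells gave Fyn (-0.73 and -0.83), Akt2 (0.56 and 0.35), Cav1 (0.63 and 0.34) and Lrig1 (0.28 and 0.39). Shc1, an adaptor of receptor tyrosine kinases, recurred in the endothelial classes. Coronary endothelial-like cells gave it (0.74 and 0.60) with Spry2 (0.66 and 0.55), Furin (0.90 and 0.47) and Ptpn2 (-0.46 and -0.65), and endocardial-like cells (0.51 and 0.38) with Ptpn2 (-0.42 and -0.91), Fyn (-0.31 and -0.84) and Plcg1 (0.38 and 0.27). Macrophage-like cells gave Plau (0.56 and 2.06), Sparc (-0.55 and -0.72), Akt1 (-0.53 and -0.58) and Grb2 (-0.46 and -0.41).

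The genes whose pattern over classes was most like that of each member were found by Pearson correlation of log2(CPM + 10) over 36 points, the 9 classes in 4 libraries, among 12927 genes with at least 200 UMIs. Points of a library share its depth and points of a class its cell type, so these values describe the pattern and carry no test. For Pdgfra the 8 genes were Synpo, Meis3, Angptl2, Socs2, Nfix, Lum, Gpm6b and Mfap2, with r of 0.86 to 0.89. For Pdgfrb they were the joined row of Dnm3os with Mir199a-2 and Mir214, Snai2, Bgn, Col6a3, Gpc6, Lum, Nfatc4 and Srpx2, with r of 0.85 to 0.88. The receptors correlated with each other at 0.75. The small leucine-rich proteoglycan gene Lum stood on both lists, and it was among the markers that named the fibroblast-like class. Pdgfa was closest to Ror1, Cdh3, Serpinb6b and Synpo2 (0.85 to 0.88), and Pdgfb to Kcne3, Aplnr, Gpihbp1 and Pcdh1 (0.89 to 0.93), of which Aplnr was among the markers that named the coronary class. Pdgfc was closest to Prdm6, Fstl3, Lmod1 and Chmp2b (0.83 to 0.88). Pdgfd was closest to Wwc2, Tspan5, the transgene row Creert2 and Alad (0.74 to 0.78), the transgene being read from the Wt1 locus.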

How the data were processed

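Single cells of whole embryonic hearts were captured with barcoded beads in droplets. STAR, Picard and the build mm10 are named in the submitters' processing notes, and their versions are not given in the sources used here. The authors deposited 1 merged table of UMI counts for 24849 cells, in which no E13.5 cell had fewer than 500 genes and no E14.5 cell fewer than 300. Members and gene lists were chosen with earlier results of these data known. Cells under 500 UMIs, under 300 genes or over 20% mitochondrial UMIs were dropped, which left 17073173 and 9104314 UMIs in the Lats1/2 CKO libraries and 11139919 and 8562194 in the controls. Scrublet marked 0 to 7 cells per library, under 0.5%, and so gave no usable doublet call on these data. The marked cells were dropped, and other doublets may remain. Clusters came from Scanpy 1.11.5 (30 components, 15 neighbours, Leiden resolution 1), and mesenchyme was reclustered within each stage. The thresholds for naming clusters were set after clusters had been seen. All 6 members and the 4 pathway genes per class with the largest ratio in one direction at both stages are named, apart from some that are not reported here. Stage ratios had 0.5 counts added, with exact conditional binomial intervals. UMI sums per class and library were tested in edgeR 4.0.16 (R 4.3.3; TMM, filterByExpr, quasi-likelihood, genotype and stage as terms, Benjamini-Hochberg adjustment over all genes tested). The SE is the size of the log2 fold change divided by the square root of F. With 1 library per genotype and stage, p-values rest on how far the genotype differences at the 2 stages disagree, steadied by pooling over genes. They do not measure the spread between replicate libraries. No label says which embryos a library came from, and the disagreement may be technical. DESeq2 1.42.0, other filters, resolutions and classes, and leaving out each library were tried as alternatives. The test was tested on simulated counts without a stage difference. Their dispersion, the spread beyond counting error, was set to 0.05, against 0.047 estimated in fibroblast-like cells. Of log2 changes of 1 it recovered 11% in fibroblast-like cells, 17% in epicardial-like cells and 17% in both together. Of log2 changes of 2 it recovered 73%, 71% and 79%. At a dispersion of 0.01 it recovered 55%, 49% and 55% of log2 changes of 1. False calls, of genes left unchanged, were 2 of 86, 2 of 90 and 3 of 99 calls at a dispersion of 0.05, in the same order. At 0.01 they were 14 of 154, 9 of 138 and 4 of 150. A row that joins Pdgfra with Mir7025 held 7 UMIs, against 2977 for Pdgfra, and was kept apart.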

Additional observations from a re-analysis of the deposited data

Results flagged for a closer look

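The Pdgfra log2 ratio of Lats1/2 CKO over control was negative in fibroblast-like and positive in valve mesenchyme-like cells. The ratio in fibroblast-like cells minus that in valve mesenchyme-like cells came to -1.02 for the E13.5 libraries and to -1.63 for the E14.5 ones. At E13.5 the valve ratio of 0.21 was 0.04 with subclusters weighted as in the control library, and 3 of its 6 subclusters, among them the one richest in Pdgfra (-0.27), stood lower in Lats1/2 CKO cells. At E14.5 it was 0.44 so weighted, and 4 of 4 subclusters stood higher. With 1 library per genotype and stage, this difference between classes was not tested, and the classes of a library share its cells' handling and depth.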

How the results depend on the processing

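No paired analysis was possible because the labels carry no replicate numbers; the stage term stands in its place, and with no replicate block (stage left out) 1 gene was called in epicardial-like cells. Over 16 alternatives the edgeR log2 fold change of Pdgfra stayed negative: -1.20 to -0.33 in fibroblast-like cells (adjusted p from 0.0205), -0.94 to -0.37 in epicardial-like cells (from 0.815) and -1.55 to -0.87 in both together (from 0.0727). It passed 0.05 only in fibroblast-like cells with no filter on low counts (-0.93). Leaving out a library in turn gave -1.20 to -0.73, -0.56 to -0.40 and -1.55 to -0.87 in the same order.

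Counts of genes called were unstable. In fibroblast-like cells, 1 in the design as planned became 12 with DESeq2, 149 with no filter, 9 and 12 at resolutions 0.5 and 2, 5 with the marker gate, 4 in cells with at least 1000 UMIs, and 0 to 148 without 1 library (115 without Lats1/2 CKO E13.5, 0 without Lats1/2 CKO E14.5, 10 without control E13.5, 148 without control E14.5). In epicardial-like cells, 7 became 3 with RLE size factors, with the gate, with a 10% mitochondrial limit and with joint clusters, 78 with no filter, 38 and 26 at the 2 resolutions, and 36 to 186 without 1 library (54 without Lats1/2 CKO E13.5, 36 without Lats1/2 CKO E14.5, 38 without control E13.5, 186 without control E14.5). In both together, 1 became 2 with library totals, at resolution 2 and at 1000 UMIs, 14 with DESeq2, 5 at resolution 0.5, 6 with the gate and without high doublet scores, and 3 to 254 without 1 library (21 without Lats1/2 CKO E13.5, 3 without Lats1/2 CKO E14.5, 79 without control E13.5, 254 without control E14.5). Pathway genes and other members called stayed at 0 in these classes under all 16.

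The marker gate moved the Pdgfra ratio to -0.23 and -0.50 in fibroblast-like cells, to -0.56 at E13.5 in both classes together and, the other way, to -1.28 at E13.5 in epicardial-like cells. Joint clusters moved it to -0.65 in fibroblast-like cells and -1.12 in both together at E14.5. The class with the highest level was the same in fewer than 4 libraries for Pdgfra with the gate (3), for Pdgfrb at resolutions 0.5 (2) and 2 (3), with the gate (2), without high doublet scores (3), with the 10% mitochondrial limit (3) and with joint clusters (2), for Pdgfa with the gate and joint clusters (3), for Pdgfc with the gate (0) and at 1000 UMIs (3), and for Pdgfd with the gate (3). Signs turned at E14.5 for Pdgfra in endocardial-like cells at resolution 0.5 (-0.38) and with the gate (-0.22), for Pdgfra in mural-like cells with the gate (-0.59), and for Pdgfrb in fibroblast-like cells at resolution 0.5 (-0.11), with the gate (-0.21) and with joint clusters (-0.0066). The cause was not tested for any of these. Joint clusters, the limit of 1000 UMIs the values without a valve subcluster and those at the control make-up of subclusters were chosen after seeing the data. Depth limits Pdgfb, Pdgfc and Pdgfd, and epicardial-like Pdgfra, to 0 to 29 UMIs in most classes.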
